A study of Mus musculus with 12 samples.

Results

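Prefrontal cortex that had received either of the Ttr vectors was compared with cortex that had received a GFP vector. The comparison asks which transcripts stood on the same side of the GFP vector with both Ttr vectors, although one vector raises Ttr and the other is built to lower it. All 12 libraries of the series enter it: 4 with overexpression and 4 with knockdown, each group weighted equally, against 4 with GFP. The mice were male C57BL/6J, 14 weeks old, and their dorsomedial prefrontal cortex was sampled 4 weeks after injection on both sides by stereotaxic surgery, at 0.1 µL per minute for 5 minutes. Every animal was kept on chow that contained vitamin B12. Controls received pAAV.1-CAG-GFP, in which the broadly active CAG promoter drives GFP. Overexpression used pAAV-CAG-GFP-P2A-Ttr-WPRE.bgH, in which the same promoter drives GFP joined to Ttr. Knockdown used a pAAV-U6 vector in which the U6 promoter drives a single hairpin RNA (Ttr-shRNA-2), followed by a CAG-GFP-WPRE3 cassette. All groups thus shared surgery, a virus and GFP. The control vector came from a repository (Addgene) and both Ttr vectors were made to order at another site, and only the Ttr vectors name a WPRE element. A difference from the GFP vector therefore cannot be told apart from the source, preparation or backbone of the vector. The labels number the 4 samples of a group without saying that they come from separate animals, and p-values then reflect only the spread from sample to sample, which may be technical.

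Transthyretin, the product of Ttr, is a carrier of thyroxine and of retinol through its binding partner, and in the brain it is made chiefly by the choroid plexus. Adeno-associated virus is a DNA virus widely used to carry genes into neurons. Cells sense foreign nucleic acid through receptors that lead to interferon, and interferon in turn raises a wide group of antiviral and antigen-presenting genes. Immediate early genes are a different group, transcribed within minutes of neuronal activity or growth factor signals, largely through the factors CREB and SRF.

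Library totals ran from 19879629 to 37166146 counts. Markers of cortical excitatory neurons were abundant in every library, with a summed level of 3736 to 4382 TPM, the deposited share of transcripts corrected for gene length. Markers of striatal projection neurons varied more between libraries than between groups, from 343 to 1303 TPM with GFP, 336 to 1664 TPM with overexpression and 277 to 1483 TPM with knockdown. No gene of the 27 lists described here was at 0 in all libraries. In bulk tissue, fewer cells of a type and less RNA per cell cannot be told apart.

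No gene passed the pooled test. Of 18289 genes tested with edgeR's quasi-likelihood test, 0 were called higher and 0 lower at a Benjamini-Hochberg adjusted p of 0.05, which is 0% in each direction, and the smallest adjusted p was 0.355. The rule of a pooled call with both groups on the same side of GFP therefore also found 0 genes. At an unadjusted p below 0.05, 848 genes were higher (4.64%) and 349 were lower (1.91%), 1197 in all (6.54%). Of the unadjusted calls 70.8% were higher with the main scaling, 66.9% with RLE size factors and 81.1% with library size alone. The share was 84.1% with limma on log2(TPM + 1), which changes tool and measure too, and 58.1% without GFP replicate 3. DESeq2, the tool also named in the submitters' processing notes, called 11 genes, all higher, with its own filter on 34740 genes, and limma-voom called 0. The genes called by DESeq2 were Nr4a1, Egr2, Siglec1, Tagln, Slc6a13, Slc13a3, Tiparp, Sik1, Egr4, Dusp6 and Cp, with DESeq2 adjusted p from 3.04e-06 for Nr4a1 to 0.0499 for Cp. In 57 genes all 8 Ttr vector libraries lay above all 4 GFP libraries (0.312%), and in 20 genes they lay below (0.109%). When each vector was tested by itself against the shared GFP libraries, 189 genes were higher in both tests at an unadjusted p below 0.05 (1.03%) and 62 were lower in both (0.339%), and 0 passed after adjustment of the larger p, whose smallest adjusted value in edgeR was 1. Because both tests use the same 4 GFP libraries, these counts describe the rule and are no independent support. In the adjusted edgeR test of each vector alone against GFP, 1 gene passed with overexpression and 1 with knockdown (0.00547% of genes each).

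Below, the 20 genes with the smallest pooled p are described with members of the gene lists. Their pooled values did not pass the adjusted pooled test unless a tool is named. List counts stand against the shares over all genes tested. Of these, 51.8% had a pooled log2 fold change above 0, and 4.64% were higher and 1.91% lower at an unadjusted p below 0.05. Among these 20 genes, 16 were higher and 4 lower with the Ttr vectors. No overlap between the 8 and the 4 libraries was found in 10 of them (0.312% of all genes lay above and 0.109% below). Their unadjusted p ran from 1.94e-05 to 0.00106. The vectors did not match at all of them: 13 of the 20 had an unadjusted p below 0.05 for overexpression against knockdown (5.1% of all genes). Of these, 9 lay farther from GFP with knockdown and 4 farther with overexpression. The 20 genes were picked by small p in the same fit, which favours genes with little spread within groups. These counts therefore describe the choice and are no independent support. Only Ttr passed the adjusted test of overexpression against knockdown (0.00547% of genes).

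**Figure D1:**
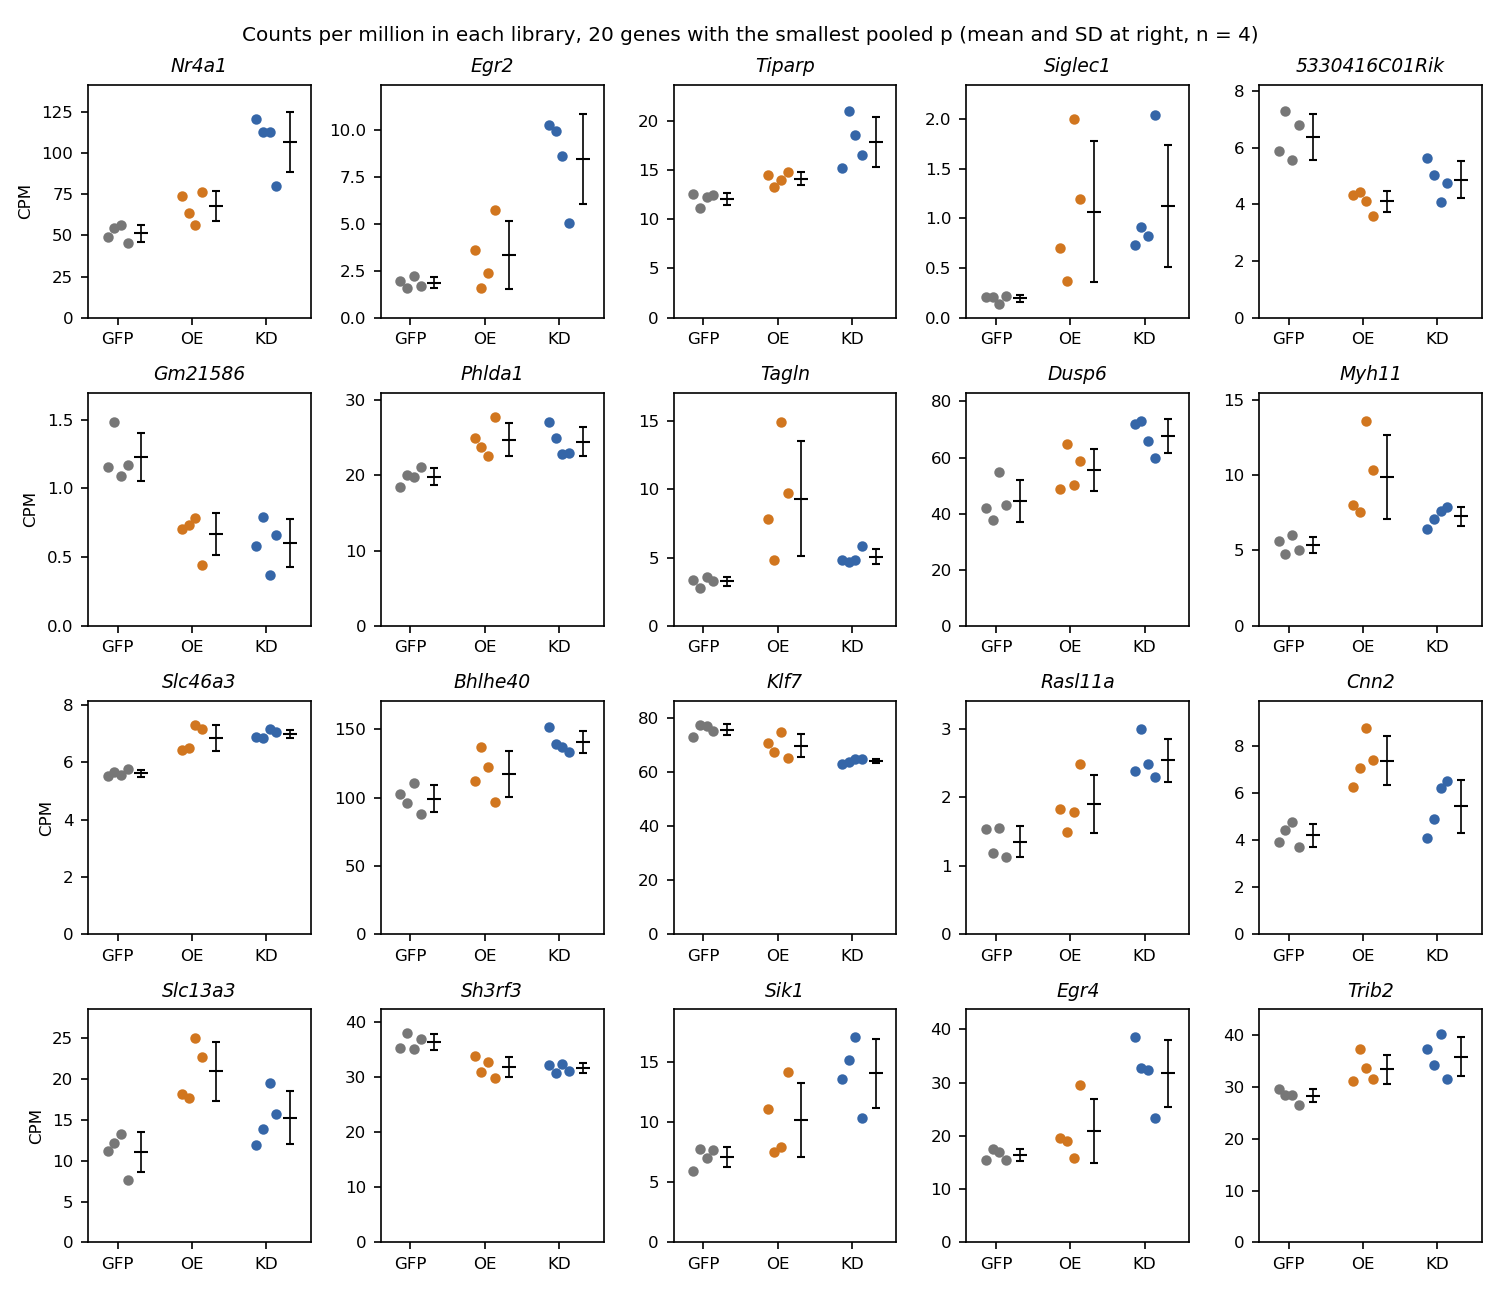
Level in each library in CPM (y axis, from 0) for the 20 genes with the smallest pooled p, by group on the x axis (GFP, GFP vector; OE, Ttr overexpression; KD, Ttr knockdown). Points are libraries and the bar at right is the mean with its SD (n = 4); 16 genes lie higher and 4 lower with the Ttr vectors, and the GFP points are tightly grouped for most of them.

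Ttr itself, at chr18:20665280-20674321 on the plus strand of GRCm38, checks the labels and shows what the pooled contrast does to a gene that the vectors move apart. Its level was 0.58, 8.50, 0.491 and 0.781 CPM (counts scaled to the library total) in the GFP libraries. Overexpression gave 639, 261, 260 and 94.2 CPM, and knockdown 0.146, 1.86, 0.827 and 0.663 CPM. Every overexpression library lay far above all others, whereas knockdown overlapped GFP: knockdown replicate 1 lay below every GFP library, the other knockdown libraries lay within the GFP range, and GFP replicate 2 stood apart. The log2 difference from GFP was 7.01 (SE 0.81) with overexpression and -1.41 (SE 1.16, edgeR unadjusted p = 0.245) with knockdown, so a lower Ttr level was not shown for the knockdown vector. Pooled, Ttr stood at a log2 fold change of 2.80 (SE 0.92, edgeR adjusted p = 0.726), 4.81 without GFP replicate 2 and 6.02 with the 8 Ttr libraries fitted as 1 group, and the difference between the vectors was 8.42 on the log2 scale (edgeR adjusted p = 0.00774).

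Immediate early and activity-induced genes led the comparison, and they were higher with knockdown than with overexpression. Of 39 measured list members, 35 had a pooled log2 fold change above 0 and 4 below, 25 were higher at an unadjusted p below 0.05 (4.64% of all genes were) and 1 was lower (1.91%), and 0 passed the adjusted test. The median was 0.38 (log2), against 0.0043 over all genes tested, with 0.23 for overexpression and 0.54 for knockdown. In the test between the vectors, 19 members were higher with knockdown at an unadjusted p below 0.05 (2.32% of all genes) and 0 were higher with overexpression (2.78%).

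Many of these genes are known targets of CREB or SRF. The 250 bases before the RefSeq start (GRCm38.p6) are therefore shown for 3 of the members among the leading 20, chosen because they hold such a motif, with capitals on 2 elements read on both strands: CGTCA, the cAMP response element half-site that CREB binds (TGACG on the other strand), and the CArG box bound by SRF. The interferon-stimulated response element, searched as GAAA, any 2 bases and GAAA again, is capitalised too, and no capitalised motifs overlap. The windows lie at chr15:101266596-101266845 for Nr4a1, plus strand, chr10:67537619-67537868 for Egr2, plus strand and 1 of 5 starts in the table, and chr6:85513590-85513839 for Egr4, minus strand.
Nr4a1: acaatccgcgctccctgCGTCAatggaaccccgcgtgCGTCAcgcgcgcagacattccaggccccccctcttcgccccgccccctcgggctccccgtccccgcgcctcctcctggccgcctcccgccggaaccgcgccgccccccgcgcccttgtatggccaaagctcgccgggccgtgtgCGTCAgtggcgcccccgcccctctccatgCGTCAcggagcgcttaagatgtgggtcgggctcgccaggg
Egr2: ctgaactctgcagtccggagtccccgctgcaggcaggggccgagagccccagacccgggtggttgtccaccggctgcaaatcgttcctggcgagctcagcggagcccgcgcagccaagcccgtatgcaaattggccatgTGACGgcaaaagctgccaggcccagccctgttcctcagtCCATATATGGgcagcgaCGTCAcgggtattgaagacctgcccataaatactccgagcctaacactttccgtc
Egr4: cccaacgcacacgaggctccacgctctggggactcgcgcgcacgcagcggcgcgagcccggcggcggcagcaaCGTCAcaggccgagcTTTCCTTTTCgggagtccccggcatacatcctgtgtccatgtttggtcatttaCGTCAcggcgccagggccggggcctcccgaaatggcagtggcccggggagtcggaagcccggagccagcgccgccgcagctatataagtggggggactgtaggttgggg
The Nr4a1 window held 4 CGTCA matches, and 3 or more occur in 0.688% of the 32851 windows of this length in the table. The Egr2 window held 2 CGTCA matches and 1 CArG box. In the Egr4 window there were 2 CGTCA matches and 1 interferon element in reverse. Dusp6, which is also among the leading 20, had none of these motifs in its window. Of the 39 list members, 29 were in the table, and 22 of these had a CGTCA in a window; 63.0% of their 46 windows held it, against 17.8% of all windows. A match is a string of letters and no evidence of binding in these samples.

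Nr4a1 encodes an orphan nuclear receptor and lies at chr15:101254269-101274795. It stood at 49.0, 54.2, 56.1 and 45.3 CPM with GFP, at 74.2, 63.6, 56.5 and 76.2 CPM with overexpression and at 121, 113, 113 and 80.1 CPM with knockdown. No Ttr vector library overlapped a GFP library, although the lowest, overexpression replicate 3, exceeded the highest GFP library only slightly. The pooled log2 fold change was 0.73 (SE 0.11, edgeR adjusted p = 0.355), made of 0.40 (SE 0.13) with overexpression and 1.06 (SE 0.13) with knockdown, and the vectors differed by 0.66 on the log2 scale with an edgeR unadjusted p of 0.000155. Without knockdown replicate 4 it was called in edgeR at 0.79 (adjusted p = 0.0149), and without the filter on low counts at 0.73 (adjusted p = 0.0129).

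Egr2, a zinc finger transcription factor gene at chr10:67535475-67542188, gave 1.95, 1.57, 2.24 and 1.69 CPM with GFP. Its level was 3.60, 1.59, 2.36 and 5.73 CPM with overexpression and 10.2, 9.92, 8.59 and 5.05 CPM with knockdown. Every knockdown library was above GFP, while overexpression replicate 2 lay within the GFP range. The pooled log2 fold change was 1.49 (SE 0.31), with 0.80 for overexpression and 2.17 for knockdown. Egr4, a related factor gene at chr6:85511121-85513589, ran from 15.4 to 17.5 CPM with GFP, 15.8 to 29.6 CPM with overexpression and 23.3 to 38.6 CPM with knockdown. Its pooled log2 fold change was 0.65 (SE 0.16), and only the knockdown libraries were clear of GFP.

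Sik1, a kinase that CREB induces, stood at 5.96 to 7.77 CPM with GFP, 7.52 to 14.2 CPM with overexpression and 10.4 to 17.1 CPM with knockdown (pooled log2 fold change 0.75, SE 0.18). Dusp6, the phosphatase that switches off ERK, stood at 37.6 to 55.0, 48.8 to 64.8 and 59.8 to 72.9 CPM in the same order (0.46, SE 0.10). For both genes overexpression overlapped GFP and knockdown did not. Fos, chosen for mention after its values were seen, had a pooled log2 fold change of 1.35 (SE 0.33), with 0.96 for overexpression and 1.73 for knockdown. Arc, whose product acts at synapses and which was also chosen after its values were seen, had 0.86, with 0.48 and 1.23. Jun was the member lower at an unadjusted p below 0.05, at -0.20, and Egr3, Nptx2 and Homer1 also had values under 0, from -0.07 to -0.03. The list's mean log2 level, centred on each gene's mean, ran from -0.33 to -0.17 in the GFP libraries, -0.20 to 0.26 with overexpression and 0.04 to 0.48 with knockdown. Knockdown and GFP did not overlap, and overexpression replicates 2 and 3 were at or below the highest GFP library. Leaving out any 1 library moved the list median between 0.34 and 0.42.

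Among the leading genes outside the list, Tiparp, Bhlhe40 and Rasl11a were also farther from GFP with knockdown. Tiparp, a mono-ADP-ribosyltransferase gene at chr3:65528410-65555518, stood at 12.5, 11.1, 12.2 and 12.4 CPM with GFP, at 14.5, 13.3, 13.9 and 14.7 CPM with overexpression and at 15.2, 21.0, 18.5 and 16.5 CPM with knockdown. The 3 groups followed one another without overlap between GFP and either vector, at a pooled log2 fold change of 0.40 (SE 0.08). Bhlhe40, a transcriptional repressor tied to the circadian clock, ran from 88.0 to 110 CPM with GFP, 96.9 to 137 CPM with overexpression and 133 to 152 CPM with knockdown (0.37, SE 0.08). Per1, an early response list member that is not among the leading 20, was at 0.39 pooled, with 0.13 for overexpression and 0.64 for knockdown. It answers to CREB and to glucocorticoid as well as the clock. Trib2, a pseudokinase gene, lay between 26.5 and 29.6 CPM with GFP and between 31.2 and 40.2 CPM with the Ttr vectors, with no overlap (0.29, SE 0.07). Rasl11a, encoding a small Ras-like protein, had 0.69 (SE 0.16), with 0.47 for overexpression and 0.90 for knockdown. In the list of glucocorticoid targets 2 of 15 members were higher at an unadjusted p below 0.05 (4.64% of all genes): Per1 and Dusp1, both also in the early response list. Fkbp5, a widely used glucocorticoid target chosen for mention after its values were seen, was at 0.16. Among 17 clock genes 4 were higher at that level (4.64% of all genes), with a median of 0.04.

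Ranked by the larger p of the tests of each vector alone, the first 10 genes were Siglec1, Phlda1, Slc46a3, Gm21586, Sh3rf3, Rhbdf2, Foxf2, Plscr2, Robo4 and Cd163. At each of these the unadjusted edgeR p between the vectors was 0.474 or more. This ranking favours genes that lie about equally far from GFP with both vectors, so their likeness follows from the choice. It does not show that the vectors act alike.

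Siglec1 encodes sialoadhesin, a sialic acid-binding lectin of macrophages that interferon raises, and lies at chr2:131069220-131086765. It was hardly expressed with GFP, at 0.207, 0.212, 0.136 and 0.217 CPM. It reached 0.702, 0.367, 2.01 and 1.20 CPM with overexpression and 0.728, 0.909, 0.827 and 2.04 CPM with knockdown. All 8 libraries were above the 4, and the pooled log2 fold change was 2.49 (SE 0.52, edgeR adjusted p = 0.726), with 2.45 and 2.52 for the 2 vectors. Few counts stand behind the GFP values. Cd163, the haemoglobin scavenger receptor of macrophages at the borders of the brain, was at 0.564 to 1.49 CPM with GFP, 1.55 to 2.04 CPM with overexpression and 1.60 to 2.05 CPM with knockdown. Its pooled log2 fold change was 0.74 (SE 0.20), again without overlap.

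Phlda1, a gene of the pleckstrin homology-like family at chr10:111506286-111508645, varied little within groups. Its level was 18.5, 20.01, 19.7 and 21.1 CPM with GFP, 24.9, 23.7, 22.5 and 27.7 CPM with overexpression and 27.0, 24.9, 22.9 and 22.96 CPM with knockdown. The groups did not overlap, at a pooled log2 fold change of 0.31 (SE 0.07). Slc46a3, a lysosomal membrane transporter gene at chr5:147878437-147894815, was at 5.51, 5.65, 5.54 and 5.77 CPM with GFP. With the Ttr vectors it lay between 6.44 and 7.31 CPM, clear of all GFP libraries (0.30, SE 0.07). Foxf2, a forkhead factor gene of brain pericytes, was at 3.06 to 3.47 CPM with GFP and at 3.75 to 4.90 CPM with the Ttr vectors (0.40, SE 0.10). Robo4, a receptor of endothelium, was at 4.80 to 5.90 CPM with GFP and at 6.19 to 8.62 CPM with the Ttr vectors (0.42, SE 0.11). Plscr2, a phospholipid scramblase gene, was at 0.564 to 1.39 CPM with GFP and at 1.46 to 2.72 CPM with the Ttr vectors (0.90, SE 0.24). These 3 did not overlap either, while Rhbdf2, an inactive rhomboid gene of the inflammatory shedding pathway, overlapped in overexpression replicate 2 (0.70, SE 0.18).

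**Figure D2:**
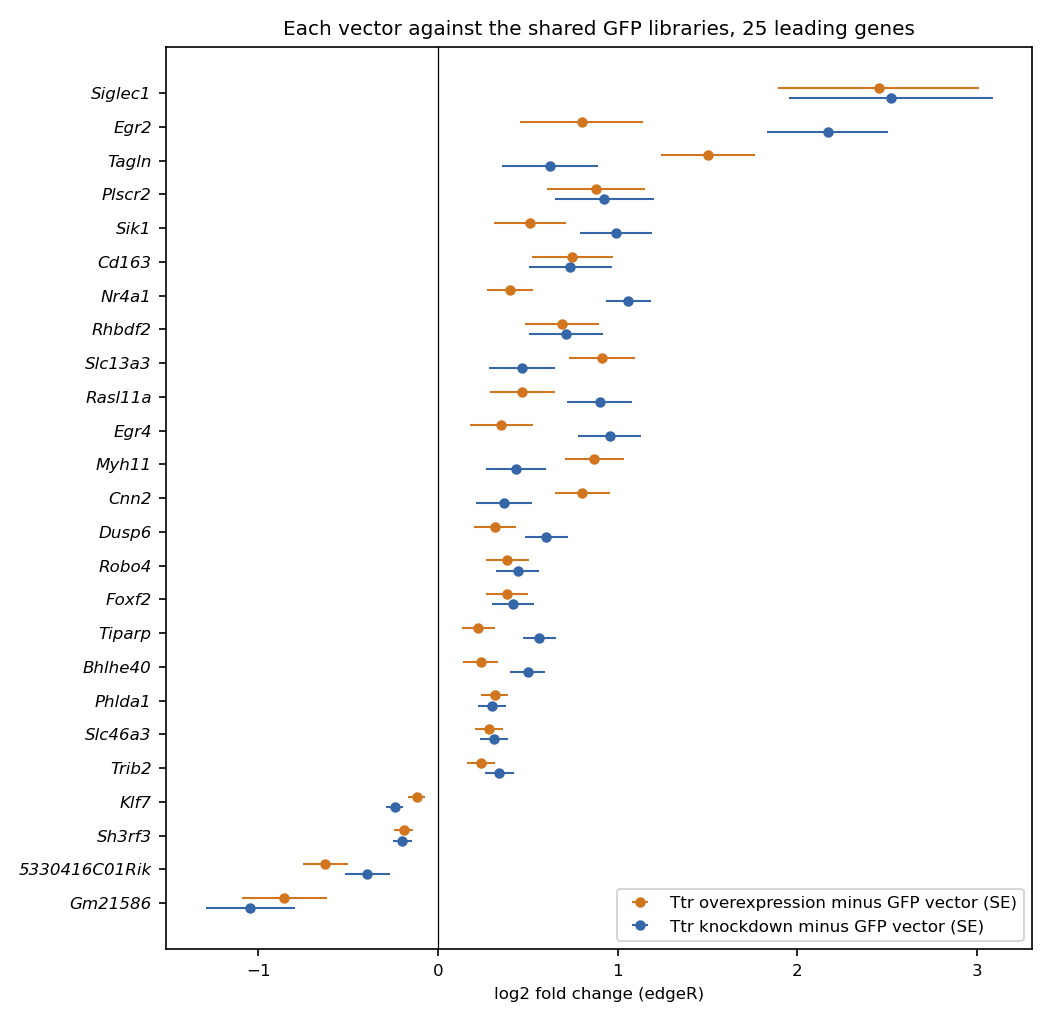
Log2 fold change against the shared GFP libraries (x axis) with its standard error for each vector (orange, overexpression; blue, knockdown), for the genes named by the smallest pooled p or the smallest larger p (y axis). Siglec1, Plscr2, Cd163, Phlda1 and Slc46a3 lie at nearly the same value with both vectors, Egr2 and Nr4a1 lie farther out with knockdown, and Tagln, Slc13a3 and Myh11 with overexpression.

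Contractile genes of the vessel wall were higher with both vectors and more so with overexpression. Of 16 smooth muscle and pericyte markers, 15 were above 0 and 1 below, 9 were higher at an unadjusted p below 0.05 (4.64% of all genes) and 0 lower, and 3 lay above GFP without overlap (0.312% of all genes). The list median was 0.27, with 0.40 for overexpression and 0.14 for knockdown, and 6 members were higher with overexpression at an unadjusted p below 0.05 in the test between the vectors (2.78% of all genes). Without overexpression replicate 3 the pooled median was 0.19, and 6 of 15 members tested were higher than GFP at an unadjusted p below 0.05. Tagln, the smooth muscle actin-binding protein at chr9:45929619-45936058, stood at 3.35, 2.80, 3.60 and 3.30 CPM with GFP. It stood at 7.84, 4.80, 14.9 and 9.72 CPM with overexpression and at 4.85, 4.66, 4.85 and 5.87 CPM with knockdown. No library overlapped GFP, and the pooled log2 fold change of 1.06 (SE 0.24, edgeR adjusted p = 0.726) was made of 1.503 with overexpression and 0.62 with knockdown. Myh11, the smooth muscle myosin heavy chain at chr16:14194535-14291372, also had no overlap, at 4.80 to 6.01 CPM with GFP, 7.58 to 13.6 CPM with overexpression and 6.45 to 7.91 CPM with knockdown (0.65, SE 0.15). Cnn2, a calponin gene, had 0.59 (SE 0.14), and Myl9, a myosin light chain gene, 0.49 (SE 0.13). The pericyte markers Rgs5, Abcc9 and Kcnj8, chosen for mention after their values were seen, were at 0.05, -0.03 and 0.04. Abcc9 was the 1 list member below 0. Other pericyte markers of the list are not given here, so these 3 do not stand for pericytes as a whole. Endothelial markers were above 0 in 18 of 18 members (51.8% of all genes), 7 at an unadjusted p below 0.05 (4.64%), with a median of 0.18. Without GFP replicate 2 only 2 were at that level, and without GFP replicate 4, overexpression replicate 3 or overexpression replicate 4 it was 4. Vwf, the clotting factor made by endothelium, had the smallest p, at 0.46 (SE 0.14). The summed level of the smooth muscle and pericyte list was 211 to 230 TPM with GFP, 241 to 354 TPM with overexpression and 230 to 260 TPM with knockdown.

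Markers of the meninges were likewise higher with overexpression than with knockdown, and their level depended on single libraries. Of 18 members, 17 were above 0 (51.8% of all genes), and 9 were higher at an unadjusted p below 0.05 (4.64%) and 0 lower. The median was 0.69, with 1.18 for overexpression and 0.25 for knockdown. In the test between the vectors 13 of the 18 were higher with overexpression at an unadjusted p below 0.05 (2.78% of all genes). Slc6a13, a GABA transporter of meningeal fibroblasts, stood at 4.64, 3.36, 6.31 and 2.43 CPM with GFP, at 9.92, 8.38, 14.0 and 10.4 CPM with overexpression and at 5.24, 5.26, 8.56 and 6.53 CPM with knockdown. GFP replicate 3 overlapped the knockdown libraries, and the pooled log2 fold change was 0.96 (SE 0.23). Aldh1a2, which makes retinoic acid in the meninges, had 1.19 (SE 0.38), with 1.85 and 0.54 for the 2 vectors, and Igfbp2, a binding protein for insulin-like growth factors, had 0.50 (SE 0.13). Slc13a3, a dicarboxylate transporter gene at chr2:165405028-165473230, is among the leading 20 but is not a member of the meningeal list. It ran from 7.59 to 13.2 CPM with GFP, 17.7 to 25.1 CPM with overexpression and 11.9 to 19.6 CPM with knockdown (0.69, SE 0.16). The summed meningeal level was 124 to 268 TPM with GFP, 294 to 428 TPM with overexpression and 141 to 273 TPM with knockdown. Without GFP replicate 4, the lowest library, the list median was 0.48, with 6 members higher at an unadjusted p below 0.05. Without GFP replicate 3 the median was 1.25, with 17 members higher at that level, and a replicate block gave 15. The part of meningeal tissue in the vessel wall values was not tested.

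Interferon-stimulated genes showed the highest list median, 1.76, and the most uneven libraries. All 42 members were above 0 (51.8% of all genes) and 41 were higher at an unadjusted p below 0.05 (4.64%), with 0 passing the adjusted test. The unadjusted count was 10 with limma-voom and 30 without GFP replicate 4. Medians were 1.20 for overexpression and 2.41 for knockdown. In the test between the vectors 22 members were higher with knockdown at an unadjusted p below 0.05 (2.32% of all genes) and 0 with overexpression (2.78%). The summed level was 256 to 354 TPM with GFP. With overexpression it was 366, 276, 754 and 1009 TPM, and with knockdown 593, 990, 531 and 2975 TPM. Overexpression replicates 1 and 2 thus stood at or near the GFP level, and knockdown replicate 4 stood far above the rest. Without that library the list median was 1.27. With no overlap there were 3 of the 42 members (0.312% of all genes): Oas2, Zbp1 and Ifi35.

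Oas2, which activates RNA decay on sensing double-stranded RNA, stood at 0.746, 0.552, 0.71 and 0.434 CPM with GFP. It stood at 1.04, 0.795, 3.37 and 2.35 CPM with overexpression and at 2.47, 3.91, 2.03 and 17.3 CPM with knockdown (pooled log2 fold change 2.46, SE 0.68). Zbp1, a sensor of Z-form nucleic acid, had 3.20 (SE 0.97), from 0.212 to 0.290 CPM with GFP to 6.39 CPM in overexpression replicate 4. Irf9, part of the factor that carries the interferon signal, had 1.49 (SE 0.41), with 0.74 and 2.24. Ifi27, by contrast, ran from 25.01 to 51.1 CPM with overexpression around the GFP range of 28.0 to 33.4 CPM, and from 52.2 to 89.1 CPM with knockdown. Its vectors differed with an unadjusted edgeR p of 0.00056. Among 20 sensors of foreign nucleic acid and their adaptors, 19 were above 0 (51.8% of all genes) and 11 were higher at an unadjusted p below 0.05 (4.64%). Their median was 0.43. At that level limma-voom gave 3 higher and the fit without GFP replicate 4 gave 7. Those 11 include Ifi204, Ddx58 and Irf7, which interferon itself raises. Mavs, Irf3 and Tbk1, chosen for mention after their values were seen, were at -0.02, 0.03 and 0.04. Mavs was the 1 member of the list below 0. The part of interferon in the sensor values was not tested.

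Antigen presentation differed in which library was highest. All 21 members were above 0 (51.8% of all genes) and 16 were higher at an unadjusted p below 0.05 (4.64% of all genes), or 3 with limma-voom. The median was 1.38, with 1.60 for overexpression and 0.65 for knockdown. B2m, the light chain shared by class I molecules, stood at 79.2, 68.1, 88.2 and 56.6 CPM with GFP, at 113, 78.8, 123 and 274 CPM with overexpression and at 98.1, 149, 94.5 and 308 CPM with knockdown. Overexpression replicate 2 overlapped GFP, and the pooled log2 fold change was 1.08 (SE 0.36). The class II gene H2-Aa had another pattern, at 0.868 to 3.19 CPM with GFP, 20.3, 4.25, 8.31 and 105 CPM with overexpression and 1.94 to 4.19 CPM with knockdown. Its vectors differed by 3.48 on the log2 scale with an unadjusted edgeR p of 0.00109. Counts of the similar H2 and Oas genes can be shared between copies and are uncertain. The summed level of the list reached 3099 TPM in overexpression replicate 4 and 1747 TPM in knockdown replicate 4, against 454 to 592 TPM with GFP. The promoter of B2m, chr2:122147437-122147686 on the plus strand, is shown because it carries both the interferon element and the cAMP half-site found above; its last base is the first of the annotated exon.
B2m: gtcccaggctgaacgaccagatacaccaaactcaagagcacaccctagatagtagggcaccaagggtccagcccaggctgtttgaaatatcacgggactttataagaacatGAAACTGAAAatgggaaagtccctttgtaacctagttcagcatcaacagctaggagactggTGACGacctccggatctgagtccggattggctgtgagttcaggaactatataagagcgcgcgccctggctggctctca
It held 1 interferon element and 1 CGTCA match, the latter as TGACG. The first occurs in 2.98% of all windows and in 50.0% of the 34 windows of the 30 interferon list members found in the table.

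Markers of immune cells were examined beside these genes. Of 21 lymphocyte and plasma cell markers only 9 had enough counts for the test. Of these 7 were above 0 and 2 below, with a median of 0.58. At an unadjusted p below 0.05, 4 were higher (4.64% of all genes) and 1 lower (1.91%). Without GFP replicate 2 or GFP replicate 4, and with limma-voom or robust dispersion, 1 was higher; without GFP replicate 3 or knockdown replicate 3 it was 2. Trbc2, a constant gene of the T cell receptor, was the lower one at -0.37 (SE 0.15), with 14.1 to 22.7 CPM in the GFP libraries, 10.7 to 17.5 CPM with overexpression and 11.3 to 16.4 CPM with knockdown. Cd8a, the coreceptor of cytotoxic T cells, had no overlap (0.312% of all genes lay above). It was at 0.0425 to 0.0868 CPM with GFP, 0.122 to 3.46 CPM with overexpression and 0.146 to 0.561 CPM with knockdown. Few counts stand behind these values, and its pooled log2 fold change of 2.81 was as low as 0.45 in other fits of all libraries. Ccl5, a chemokine of T cells, reached 6.75 CPM in overexpression replicate 4 and 1.02 CPM in knockdown replicate 4, and Jchain, of antibody-secreting cells, 9.40 CPM in overexpression replicate 1. Cd3d, Cd3e and Ms4a1 were among the 12 markers left untested for low counts. Homeostatic microglia markers had 18 of 19 members above 0 (51.8% of all genes) and a median of 0.22. C1qa, C1qc and Itgam were at 0.52, 0.45 and 0.29, and Fcrls, at -0.28, was the 1 member below 0. At an unadjusted p below 0.05, 0 were higher (4.64% of all genes) and 1, Fcrls, was lower (1.91%). The number higher was 12 without overexpression replicate 2 and 7 without the filter on low counts. Activated microglia genes had 19 of 19 members above 0 (51.8% of all genes), with 8 higher at an unadjusted p below 0.05 (4.64%). Their median was 0.80, with 1.06 and 0.21 for the 2 vectors. That median was 0.37 without overexpression replicate 4, 0.42 with limma-voom, 0.47 on log2(TPM + 1) and 0.52 with a replicate block. Leaving out GFP replicate 4 left 3 higher, and leaving out GFP replicate 1, GFP replicate 2 or knockdown replicate 4 left 4. Cd52 had the smallest p of the list, at 1.16 (SE 0.40). Border-associated macrophage markers had 12 of 12 members above 0 (51.8% of all genes), 4 of them at that level (4.64%), and a median of 0.39. Without GFP replicate 4 these were 9, 2 and 0.24, and 2 were also at that level without overexpression replicate 3 or knockdown replicate 3. Reactive astrocyte genes had 24 of 25 members above 0 (51.8% of all genes) and a median of 0.49. At an unadjusted p below 0.05, 12 were higher (4.64% of all genes), of which 5 also stand in the interferon or antigen lists. Without overexpression replicate 4 the median was 0.32, and limma-voom gave 4 higher. Cp, which encodes ceruloplasmin, had the smallest p of that list, at 0.68 (SE 0.16), with 0.99 for overexpression and 0.37 for knockdown. Gfap, chosen for mention after its values were seen, was the 1 member below 0, at -0.16. The part of these cells in the interferon and antigen values was not tested.

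**Figure D3:**
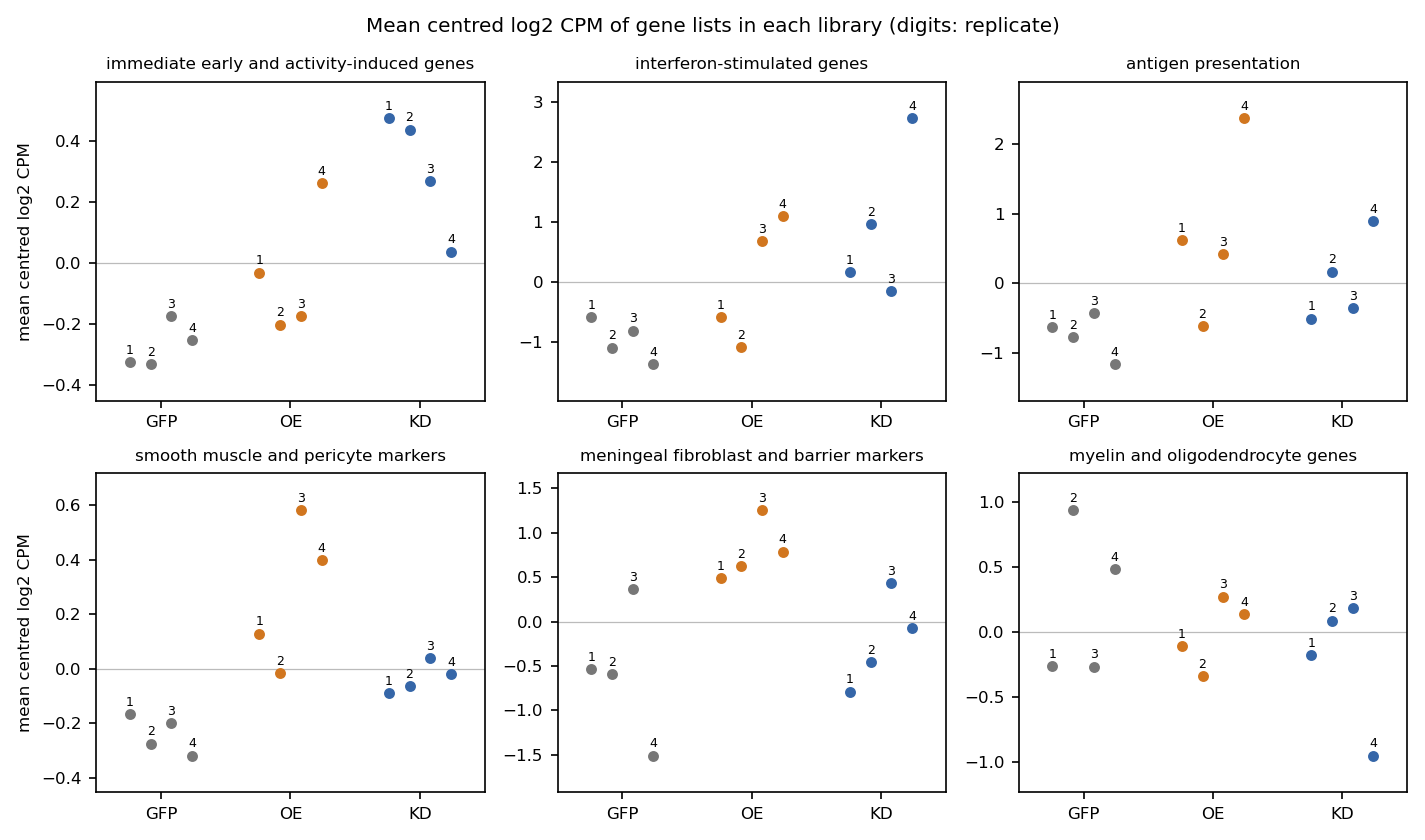
Mean log2 CPM of 6 gene lists, centred on each gene's mean over the 12 libraries (y axis), by group on the x axis, with the replicate number beside each point. Early response genes separate knockdown from GFP, interferon genes are highest in knockdown replicate 4, antigen presentation in overexpression replicate 4, and myelin genes are highest in GFP replicates 2 and 4.

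Fewer genes were lower than higher at an unadjusted p below 0.05, 349 against 848. Of the 4 in the leading 20, 5330416C01Rik, a long noncoding RNA at chr13:97733498-97747411, stood at 5.88, 7.31, 5.57 and 6.81 CPM with GFP, at 4.33, 4.43, 4.12 and 3.60 CPM with overexpression and at 5.63, 5.06, 4.08 and 4.75 CPM with knockdown. Only knockdown replicate 1 overlapped GFP, and the pooled log2 fold change was -0.51 (SE 0.11). Gm21586, a predicted gene at chr4:42439378-42439966, had 1.09 to 1.49 CPM with GFP and 0.371 to 0.790 CPM with the Ttr vectors, without overlap (-0.95, SE 0.20). Sh3rf3, encoding a RING finger protein with SH3 domains, had 35.1 to 38.1 CPM with GFP and 29.9 to 33.8 CPM with the Ttr vectors, also without overlap (-0.19, SE 0.05). Klf7, a Krüppel-like factor gene of neurons, was at -0.18 (SE 0.04), and its knockdown libraries, at 63.1 to 64.8 CPM, lay under all others.

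Neuronal and oligodendrocyte lists were near or under 0. Of 19 excitatory neuron markers, 11 were below 0 and 2 were lower at an unadjusted p below 0.05 (1.91% of all genes). These were Nptx1, a synaptic pentraxin, at -0.37 (SE 0.09), and Tbr1, a factor of deep-layer neurons, at -0.30 (SE 0.08). The median was -0.08 and none was higher at that level. Nptx1 ran from 502 to 660 CPM with GFP, 379 to 467 CPM with overexpression and 383 to 531 CPM with knockdown. All 18 myelin genes were below 0, with a median of -0.38. Mag, a glycoprotein of the myelin sheath, was at -0.48 (SE 0.26, edgeR unadjusted p = 0.093). The summed myelin level was 2896, 6665, 2841 and 5048 TPM with GFP, 2782 to 4185 TPM with overexpression and 1732 to 4119 TPM with knockdown. GFP replicates 2 and 4 were the highest of all 12, and GFP replicates 1 and 3 lay within the range of the other groups. Without GFP replicate 2 the list median was -0.085 and Mag was at -0.15. Olig1 and Olig2, factors of the oligodendrocyte lineage, were at -0.31 and -0.27, and at -0.19 and -0.15 without GFP replicate 2.

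The remaining lists had medians from -0.25 to 0.65. Endoplasmic reticulum folding genes had a median of -0.04 with 3 of 24 lower at an unadjusted p below 0.05 (1.91% of all genes). These were Sdf2l1, Manf and Herpud1, from -0.23 to -0.11. Heat shock genes were at -0.04 with 0 of 15 at that level, and p53 targets at 0.01 with 1 of 16, Phlda3, lower (1.91% of all genes). Red blood cell genes were at -0.25 with 0 of 5 at that level, and at -0.086 without GFP replicate 3 and -0.38 without GFP replicate 4. Interneuron markers were at 0.13 with 1 of 15, Adarb2, higher, and astrocyte identity markers at 0.12 with 2 of 12 higher (4.64% of all genes were). Retinoid and thyroid hormone handling genes, the ones nearest to what transthyretin carries, had a median of 0.11 over 24 members, and Aldh1a2, which had the smallest p of them, also stands in the meningeal list. Choroid plexus markers, of which 9 of 15 were tested, were at 0.40, or 0.26 without knockdown replicate 3. Aqp1, a water channel, was at 2.08 (SE 0.75), but its level was low. It was at 0.0868 to 0.255 CPM with GFP, 0.245 to 1.33 CPM with overexpression and 0.342 to 3.16 CPM with knockdown. The log2 fold change was 1.40 without knockdown replicate 2, and as low as 0.54 with other tools, scalings or filters. Ependymal markers were at 0.65 with 1 of 11 higher (4.64% of all genes), Hydin, a gene of motile cilia. That median moved from 0.30 without overexpression replicate 3 to 1.54 without GFP replicate 4. Oligodendrocyte precursor, striatal and p53 medians changed sign when single libraries were left out.

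**Figure D4:**
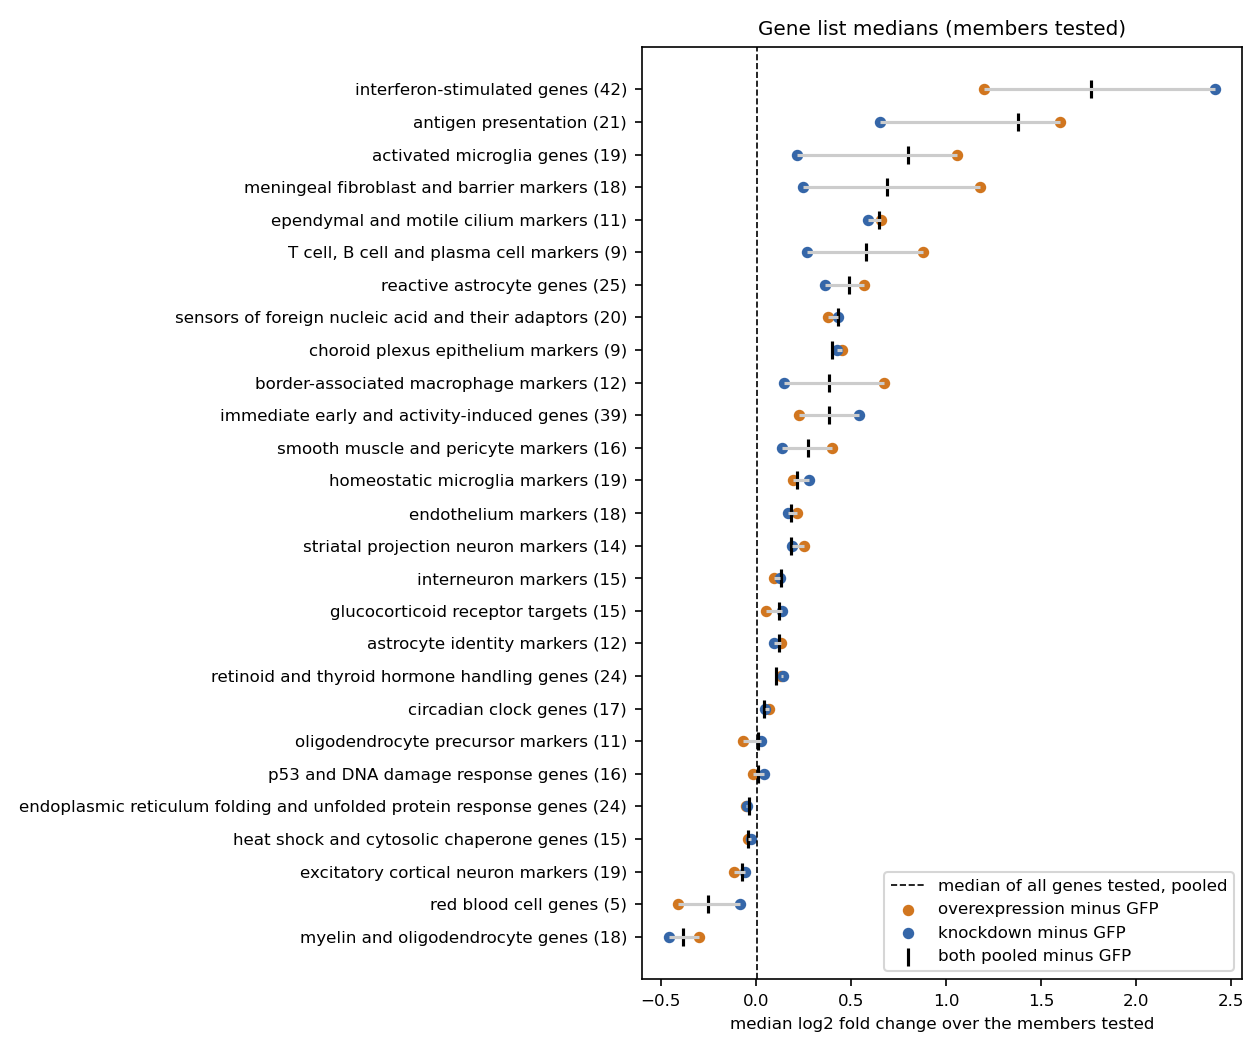
Median log2 fold change of each of the 27 gene lists (x axis), with the number of members tested in brackets on the y axis. Orange points are overexpression minus GFP, blue points knockdown minus GFP, black ticks both pooled, and the dashed line the pooled median of all genes tested (0.0043); interferon genes lie highest at 1.76 and myelin genes lowest at -0.38.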

How the data were processed

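RNA of 12 prefrontal cortex samples was sequenced after poly(A) selection with a directional kit and UMI adaptors, per the labels' protocols. The authors deposited raw counts per gene and TPM values; featureCounts, UMI-tools, bcl2fastq 2.20.0.422, DESeq2 and GRCm38 stand in the submitters' processing notes. Which aligner, annotation and strand setting were used, and how duplicates were treated, is not given in the sources used here. Another deposited table, of transformed values, was not used. Of 55401 identifiers, 55141 matched a symbol in GENCODE M21.

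Counts were fitted in edgeR 4.0.16 (R 4.3.3) with TMM scaling, filterByExpr by group and 3 group means over all 12 libraries. The contrast was the mean of overexpression and knockdown minus GFP, two-sided, adjusted by Benjamini-Hochberg over 18289 genes at 0.05. The scripts were checked on simulated data. Genes named by rule were Ttr, the 20 with the smallest pooled p, up to 4 per list by pooled p, and the 10 with the smallest larger p of both single-vector tests. Other genes with values were chosen after these were seen: Fos, Arc, Jun, Egr3, Nptx2, Homer1, Fkbp5, Rgs5, Abcc9, Kcnj8, Mavs, Irf3, Tbk1 and Gfap. The members, lists and rules were chosen with earlier results of these data known. Of the 122 genes named by rule, 49 overlap another annotated gene, so their counts are uncertain without the strand setting. Among the 49 are Tiparp, Phlda1, Tagln, Bhlhe40, Klf7, Slc13a3, Sh3rf3 and Trib2. Of the same 122 genes, 83 were in the RefSeq promoter table.

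CPM values use the TMM library sizes. Totals of 19879629 to 37166146 counts set the precision, and low genes such as Siglec1 vary by counting error. Libraries of 1 group differed by 5.37 to 28.4 times the sampling noise (chi-square per degree of freedom, 18 pairs), so none was a repeat deposit. Same replicate numbers did not pair libraries. Alternatives were DESeq2 1.42.0, limma-voom and limma on log2(TPM + 1) (limma 3.58.1), other scalings and filters, robust dispersion, the 8 libraries as 1 group, a replicate block and leaving out each library. Figures were drawn with matplotlib 3.10.9 (Python 3.11.15).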

Additional observations from a re-analysis of the deposited data

Results flagged for a closer look

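Among 78 groups of 4 values checked for a library far from the others, 4 were found, where chance gives about 1 in 20. Ttr was at 8.50 CPM in GFP replicate 2, against 0.491 to 0.781 CPM in the other GFP libraries. Siglec1 was at 0.136 CPM in GFP replicate 3, below the 0.207 to 0.217 CPM of the others. In knockdown replicate 4, Siglec1 was at 2.04 CPM, against 0.728 to 0.909 CPM in the other knockdown libraries. Tagln in the same library was at 5.87 CPM, against 4.66 to 4.85 CPM. The effects of the vectors on Ttr differed, by 8.42 on the log2 scale for overexpression minus knockdown, as tested in edgeR (adjusted p = 0.00774).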

How the results depend on the processing

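The 0 genes called in the pooled contrast, and the 0 of these on the same side of GFP with both vectors, became 1 without a filter on low counts (Nr4a1) and 11 with DESeq2, which also tested 34740 genes under its own filter, so tool and filter changed together. Leaving out 1 library gave 0 to 1 in each, the 1 without knockdown replicate 4. The 1197 genes at an unadjusted p below 0.05 became 1865 without a filter, and 700 (without GFP replicate 4) to 1969 (without overexpression replicate 2) when 1 library was left out. The 251 genes past both single-vector tests unadjusted became 434 without a filter. With 1 library left out they were 140 to 484: 145, 433 and 140 without GFP replicates 2, 3 and 4, and 484 and 149 without overexpression replicates 2 and 4. The cause was not tested. The pooled log2 fold change of Penk reversed to -0.097 without overexpression replicate 4 and to -0.017 without knockdown replicate 3, and leaving out 1 library gave up to 0.91. The other values of named genes kept their direction and side of the threshold in 2669 comparisons and became a call in 13.

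With a replicate block 0 genes were called and 1167 had an unadjusted p below 0.05. Libraries sharing a number across groups had correlations of -0.405 to 0.217, others -0.333 to 0.383, and the best match had its own number in 4 of 24 cases, so the numbers give no pairing. The median of all genes was at most 0.027 (log2), on log2(TPM + 1).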
